A study of Mus musculus with 18 samples.

Results

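RAW264.7 cells, a mouse macrophage line transformed by the Abelson virus, were stimulated with bacterial lipopolysaccharide (LPS) together with either a plant fraction or a defined mixture of compounds, and the transcript levels of both groups were set against each other. The fraction, used at 10 ug/mL, came from St John's wort, Hypericum perforatum, and is a part of a larger fraction of the plant. The mixture held 4 pure compounds, amentoflavone at 0.07 uM, quercetin at 0.08 uM, chlorogenic acid at 0.2 uM and pseudohypericin at 0.03 uM, and was named a 4-component system by the submitters. LPS was used at 10 ug/mL in both groups, and RNA was taken 8 h into treatment. All plates, of every group, were dosed in the dark and then stood for 30 min in ambient light, which matters as background because pseudohypericin is a photoactive pigment. The comparison asks how far the mixture leaves the cells in the transcript state that the whole fraction does during LPS stimulation. Its members are the 3 arrays of fraction plus LPS and the 3 arrays of mixture plus LPS, 6 of the 18 arrays of the series. The others are 3 arrays of solvent (0.1% DMSO) plus LPS, called vehicle plus LPS here, and 3 each of solvent, fraction and mixture without LPS. The labels give no content of the 4 compounds in the fraction, so the doses of fraction and mixture are not known to match. They also give no solvent content for the fraction and mixture, and are silent on whether arrays within a group stem from independent cultures. The p-values therefore measure the spread between these arrays, which may be technical. The cells are 1 established line, and the labels name no other cell in the cultures.

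Each array measured 45101 probe sets and gave a MAS5 signal intensity, a linear brightness scaled so that every array has the same trimmed mean. The number of arrays limits the precision. A gene was tested if its probe set was as bright as the array median or brighter on 3 or more of the 18 arrays, a condition met by 11547 genes. Differences are given as fraction plus LPS minus mixture plus LPS on the log2 scale, ± standard error of the fitted difference, and a gene was called at an adjusted p under 0.05. Array medians of the 6 arrays lay between 54.8 and 66.8, and a signal under the array median was treated as too low for a fold. Where any array of the dimmer group lay under it, the fold is therefore a lower bound, taken with the higher of the signal and the array median on each of that group's arrays. Correlations of log2 signals were 0.970 to 0.979 between arrays of 1 group over the series and 0.955 to 0.960 between fraction plus LPS and mixture plus LPS. The macrophage genes Spi1, Csf1r, Itgam, Cd14, Cd68, Lyz2, Tyrobp and Fcer1g were above the array median on all 6 arrays, whereas Mrc1, Marco and Mertk, which mark other macrophage states, were under it on all 6. Of 26 markers of other cell types, 22 were on the array and 5 were tested. Their summed signal over the 22 was 435 to 759 on the fraction arrays and 491 to 637 on the mixture arrays, and none of the 5 was called.

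LPS is sensed by Toll-like receptor 4, which switches on NF-kB target genes through one adaptor branch and type I interferon genes through another. Separately, cells short of amino acids or under other stress phosphorylate the initiation factor eIF2, which raises the translation of the transcription factor ATF4 and so the genes of amino acid supply and of the factor CHOP. Sterol supply is governed by SREBP factors, which raise cholesterol and fatty acid synthesis genes when membrane sterols are low. These programmes order the account that follows.

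With LPS present, the fraction and the mixture left the cells far apart. The cytokine gene Csf2, the siderophore-binding protein gene Lcn2 and the stress gene Trib3 were 11.6 to 19.9 times brighter with the fraction, and the channel gene Aqp9 at least 17.0 times, while the nucleotide kinase gene Nme1, the desaturase gene Scd2 and the prostaglandin receptor gene Ptger4 were 4.54 to 5.89 times dimmer. Of the 11547 genes, 3255 were called, 28.2% of those tested. Higher with the fraction were 1381 genes (12.0%) and lower 1874 (16.2%). The log2 difference was 1 or more for 336 called genes and -1 or less for 182. The arrays of both groups did not overlap for 42.8% of all tested genes. The median difference over all tested genes was -0.03, against which the medians of gene lists below are read. Counts of list members are read against the 12.0% of all genes that were higher and the 16.2% that were lower. When every array was centred on its median the share of called genes that were higher moved from 42.4% to 38.4%.

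Among the called genes, the mean of vehicle plus LPS lay nearer the mixture than the fraction in 2898 of 3255 (89.0%), and in 463 of the 518 with a log2 difference of at least 1 in size (89.4%). This share was not counted over all tested genes, so whether it is particular to the called genes was not tested. Mixture plus LPS against vehicle plus LPS itself gave 0 called genes of 11547 (0%), with 934 genes at an unadjusted p under 0.05 in limma. That comparison shares the mixture arrays with the one described here. It also depended on a single array: without vehicle plus LPS replicate 1, 191 genes were called, and with any other array left out 0 were. This array is taken up again at the end.

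The plainest shift was in the genes of the ATF4 and CHOP stress response. Of 15 measured members, 14 rose with the fraction and 0 fell, with a median difference of 1.53. The remaining member, Eif2ak3, encodes a kinase that acts upstream of ATF4 and was not called (0.06 ± 0.10). Trib3, a pseudokinase gene switched on by ATF4 and CHOP, had signals of 2631, 2816 and 2829.7 on the 3 fraction arrays and 192, 232 and 302 on the 3 mixture arrays. All 3 fraction arrays were far above all mixture arrays, and vehicle plus LPS (222, 371 and 273) overlapped the mixture. The difference of 3.54 ± 0.16 is 11.6-fold (adjusted p = 2.96e-11), read from a probe set open to cross-hybridization. Ddit3, the gene of CHOP, gave 3076, 2875 and 3088 with the fraction and 347, 626 and 601 with the mixture. It was 5.94-fold higher with the fraction (2.57 ± 0.23, adjusted p = 1.07e-07). The growth restraint genes Ddit4 and Sesn2, which act on the kinase complex mTORC1, were higher by 2.05 ± 0.25 and 2.03 ± 0.27. Chac1, which encodes an enzyme that degrades glutathione, was higher by 1.94 ± 0.22, and Atf4 itself by 1.06 ± 0.09.

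Another arm of the endoplasmic reticulum stress response gave fewer calls. Among 20 chaperone genes and targets of the factor XBP1, 2 were higher and 5 lower, where 12.0% and 16.2% of all genes were. The median of the list was -0.12. The members that rose were Sel1l and Herpud1, both parts of the machinery that removes misfolded proteins from the reticulum, at 0.87 ± 0.10 and 0.82 ± 0.11. Hspa5, the main luminal chaperone, had a difference of 0.00 ± 0.09 with a 95% interval of -0.19 to 0.19, and Xbp1 one of -0.04 ± 0.09. The members that fell did so by little: Sdf2l1 had -0.48 ± 0.12 and Dnajc3 -0.41 ± 0.09. The lower count was 2 when any one of fraction plus LPS replicates 2 or 3 or mixture plus LPS replicates 1 or 3 was left out.

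Genes of amino acid supply rose with the fraction. Among the aminoacyl-tRNA synthetases, which charge tRNAs with amino acids, 13 of 18 measured rose and 0 fell (median 0.75). Of those that rose, Farsb lost its call when any one of the 6 arrays was left out (adjusted p between 0.0618 and 0.151). Hars lost it without fraction plus LPS replicate 1 (0.0559) or mixture plus LPS replicates 2 (0.0649) or 3 (0.0599). Cars gave 3353, 3458 and 3158 against 1577, 1466 and 1442, a 2.22-fold difference (1.15 ± 0.08, adjusted p = 1.12e-08). Sars, Aars and Wars followed at 1.12 ± 0.10, 1.10 ± 0.09 and 1.04 ± 0.10. Yars, Kars, Qars, Farsa and Vars were not called, with values of -0.15 to 0.22. Among amino acid transporters, 8 of 17 rose and 0 fell (median 0.73), although 1 fell without fraction plus LPS replicate 3. Of members not called, another probe set was called lower for Slc7a6 (-0.61 ± 0.09), and others were called higher for Slc38a2 (0.54 and 0.73). Slc1a4, a carrier of alanine, serine and cysteine, gave 643, 743 and 517 with the fraction against 109, 147 and 114 with the mixture. The arrays of this gene did not overlap, and the difference was 5.13-fold (2.36 ± 0.18, adjusted p = 1.96e-08). The glycine carrier gene Slc6a9 was higher by 1.59 ± 0.12, the cationic amino acid carrier gene Slc7a1 by 1.18 ± 0.08 and the cystine carrier gene Slc7a11 by 1.09 ± 0.11.

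In the list of serine, one-carbon, asparagine and cysteine synthesis, 12 of 15 measured genes rose and 1 fell, with a median of 0.73. Cth, whose enzyme makes cysteine from cystathionine, had signals of 5927, 5236 and 5766 with the fraction and 424, 555 and 628 with the mixture. Vehicle plus LPS was at 653, 892 and 876, above the mixture arrays and well under the fraction. The 10.7-fold difference between fraction and mixture (3.41 ± 0.14, adjusted p = 1.03e-11) was almost the same without LPS (3.35). Gpt2, a mitochondrial alanine aminotransferase gene, and Aldh1l2 and Mthfd2, mitochondrial folate enzyme genes, were higher by 2.22 ± 0.11, 2.17 ± 0.12 and 1.34 ± 0.09. Asns, the asparagine synthetase gene, was higher by 0.93 ± 0.07. Mthfd1, the cytosolic counterpart in folate metabolism, was the member that fell (-0.40 ± 0.09), and 2 fell without mixture plus LPS replicate 2.

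Because genes of these 4 lists moved together, their promoters were searched for the letters TGATGNAA, the core of the site that ATF4 binds with a partner (N is any base). The search covered both strands of windows from 250 bases before to 50 bases after each transcription start in a RefSeq promoter table (build GRCm38.p6). Of all 32851 windows, 3.97% held the core, and of all 27025 genes with a window 4.51% did. It was found for 6 of 17 CHOP and ATF4 genes with a window, 5 of 13 synthetases, 2 of 12 transporters and 3 of 14 genes of the synthesis list. Members were counted whether or not they were called, and Yars, which was not, is among them. The stretches around the match are shown for 5 genes that rose, 5′ to 3′ on the gene's own strand and ending at the start at the latest, with the core in capitals and, where it lies on the other strand, in its reverse complement.
Chac1: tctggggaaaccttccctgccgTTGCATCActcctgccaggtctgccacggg
Atf3: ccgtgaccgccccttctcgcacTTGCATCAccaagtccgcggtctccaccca
Nupr1: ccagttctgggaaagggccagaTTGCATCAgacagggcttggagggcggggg
Aars: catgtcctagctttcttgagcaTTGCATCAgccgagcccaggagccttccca
Asns: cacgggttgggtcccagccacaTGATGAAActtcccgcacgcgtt
They lie at chr2:119351027-119351078, plus strand (Chac1), chr1:191183414-191183465, minus strand (Atf3), chr7:126625551-126625602, minus strand (Nupr1), chr8:111033708-111033759, plus strand (Aars) and chr6:7693210-7693254, minus strand (Asns). The first 4 carry identical letters in the core, with the match 193, 110, 110 and 112 bases before the start. Asns carries another base at the free position, on the opposite strand, 23 bases before the start. Slc7a11 held the core on both strands of its window. These are matches of letters, and no binding was measured.

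**Figure D1:**
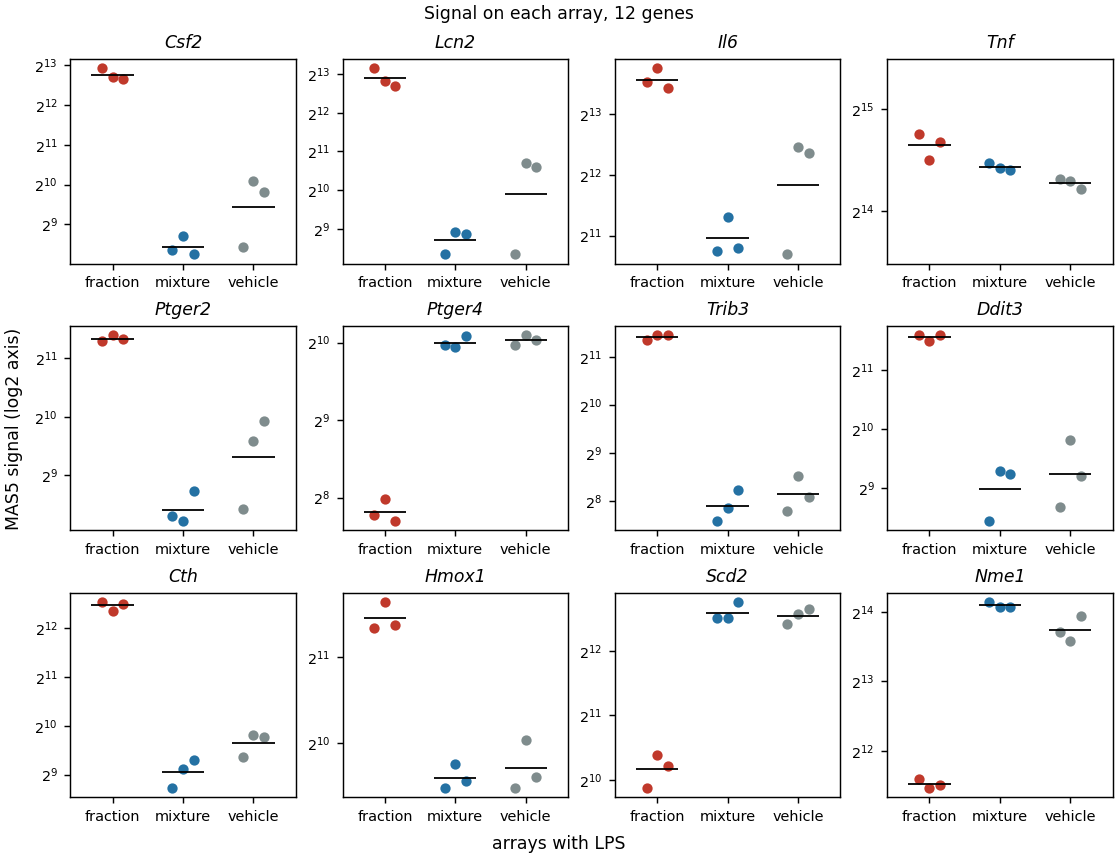
MAS5 signal on each array with LPS (log2 axis) of 12 genes for fraction, mixture and vehicle, with points for the 3 arrays of a group and a line for the mean of the log2 signals. Fraction arrays lie above the mixture arrays for Csf2, Lcn2, Il6, Ptger2, Trib3, Ddit3, Cth and Hmox1 and below them for Ptger4, Scd2 and Nme1, whereas Tnf spans a narrow range, and 1 vehicle array lies apart from the other vehicle arrays for Csf2, Lcn2 and Il6.

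The antioxidant targets of the factor NRF2 rose in part. Of 22 measured, 8 rose and 1 fell (median 0.22), a share of risers above the 12.0% of all genes. Hmox1, the heme oxygenase gene, gave 2585, 3189.8 and 2658 with the fraction against 712, 862 and 755 with the mixture. All fraction arrays were higher, by 3.62-fold (1.85 ± 0.14, adjusted p = 1.96e-08), and vehicle plus LPS was at 713, 1049 and 780. Sqstm1, a cargo receptor of autophagy, and Mafg, a partner of NRF2, were higher by 1.07 ± 0.10 and 0.97 ± 0.10. The classic members Gclm (0.09 ± 0.14), Txnrd1 (0.19 ± 0.08), Srxn1 (-0.25 ± 0.20) and Nqo1 (1.22 ± 0.58) were not called, and Nqo1 was low and uneven, at 68.2, 42.7 and 9.74 on the mixture arrays. Without mixture plus LPS replicate 1 Nqo1 was called (adjusted p = 0.0382). For Gclm another probe set was called higher (1.31 ± 0.23, adjusted p = 2.76e-04). None of 5 measured aryl hydrocarbon receptor genes was called, and 1 was without mixture plus LPS replicate 1.

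In iron and heme handling, 3 of 15 genes rose and 1 fell. Lcn2, whose protein binds bacterial siderophores, gave 9056, 7237 and 6624 with the fraction and 326, 485 and 468 with the mixture. The difference was 4.17 ± 0.45 (adjusted p = 1.32e-06), while vehicle plus LPS was spread over 327, 1676 and 1564. Slc40a1, the iron exporter gene, rose at least 4.04-fold, the mixture arrays lying under the array median. Hmox1, the third member that rose, is also in the antioxidant list, and Hfe fell (-0.47 ± 0.16), a call lost when any one of fraction plus LPS replicates 1 or 3 or any mixture plus LPS array was left out (adjusted p between 0.0725 and 0.131).

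Sterol genes ran the other way. Of 20 measured genes of cholesterol synthesis, uptake and sensing, 17 fell and 0 rose with the fraction, where 16.2% of all genes fell, and their median was -0.91. Hmgcs1, which encodes an enzyme near the start of the pathway, gave 1271, 1482 and 1354 with the fraction against 3377, 4107 and 3678 with the mixture. Every fraction array was lower, by 2.71-fold (-1.44 ± 0.13, adjusted p = 1.62e-07), from a probe set open to cross-hybridization. The squalene epoxidase gene Sqle was lower by a difference of -1.39 ± 0.12, Idi1 of -1.36 ± 0.11 and the sterol carrier gene Stard4 of -1.63 ± 0.14. Insig1, which retains SREBP in the reticulum, was at -0.97 ± 0.17. The 3 members not called were Mvk, Srebf2 and Tm7sf2, with -0.32, -0.30 and -0.28, though another probe set of Srebf2 was called lower (-0.39 ± 0.13). Fatty acid synthesis and desaturation showed 8 lower and 1 higher of 16 (median -0.31). Scd2, a stearoyl-CoA desaturase gene, gave 941, 1342 and 1195 against 5798, 5795 and 6912. It was 5.36-fold lower with the fraction (-2.42 ± 0.22, adjusted p = 1.66e-07), and the elongase gene Elovl6 was 2.57-fold lower (-1.36 ± 0.14). Fasn, the fatty acid synthase gene, was at -0.60 ± 0.09. Mid1ip1, which encodes an activator of acetyl-CoA carboxylase, was the single member that rose (1.04 ± 0.15).

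Of 17 measured targets of LXR and PPAR receptors, 4 rose and 2 fell, and 1 fell without fraction plus LPS replicate 2 or mixture plus LPS replicates 1 or 3, where Lpl, the lipoprotein lipase gene, lost its call (adjusted p = 0.132, 0.0597 and 0.0876). Plin2, which coats lipid droplets, gave 3339, 4355 and 3015 with the fraction and 687, 964 and 939 with the mixture, 4.13-fold apart (2.05 ± 0.23, adjusted p = 1.68e-06). Hilpda, which inhibits triglyceride breakdown on droplets, was higher by 2.01 ± 0.24 and the fatty acid binding protein gene Fabp4 by 1.42 ± 0.23. The sterol exporter gene Abcg1 was lower (-1.21 ± 0.21), and the related exporter gene Abca1 was not called (-0.29 ± 0.27).

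**Figure D2:**
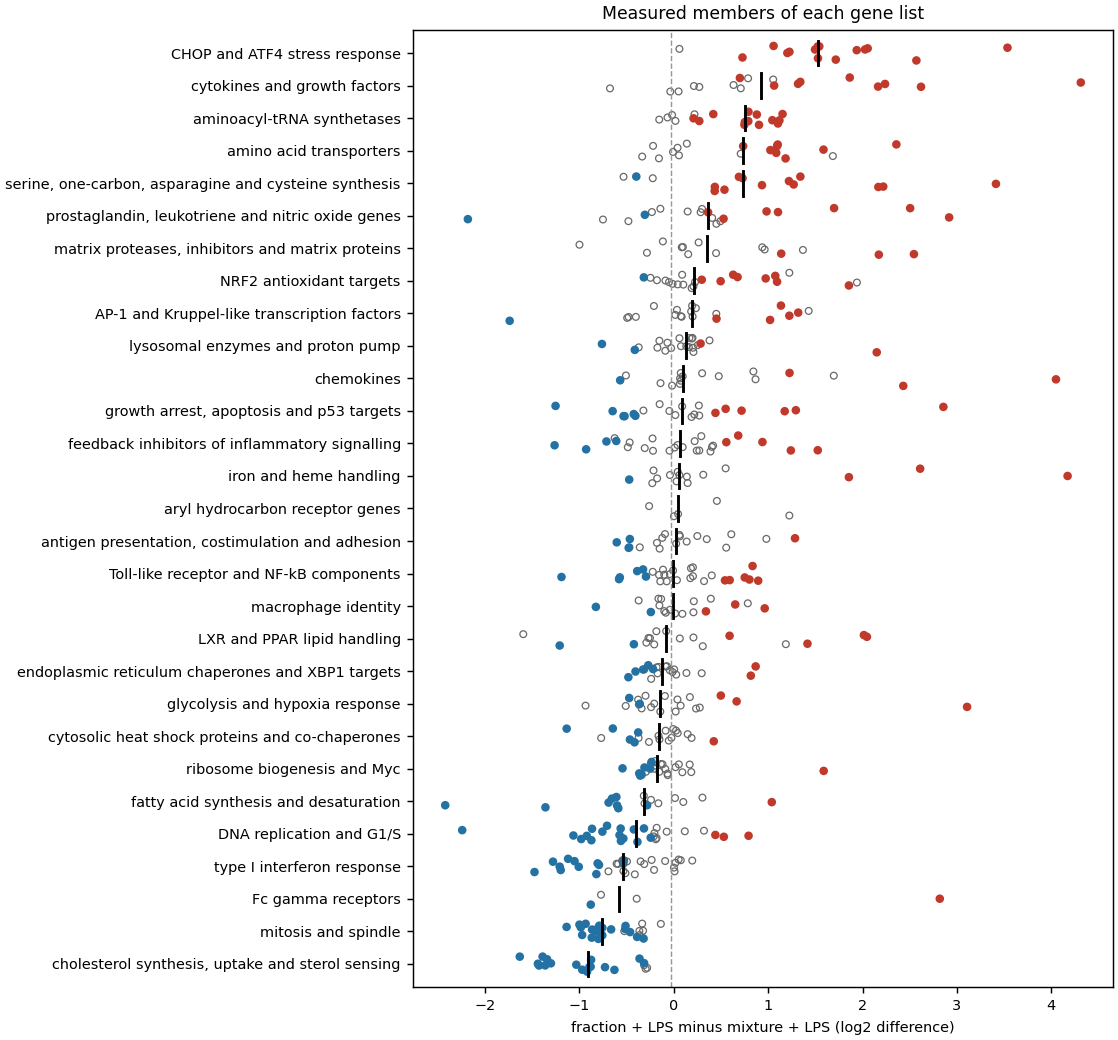
Log2 difference of fraction plus LPS minus mixture plus LPS for the measured members of 29 gene lists, with 1 point a gene, filled where called (red higher, blue lower) and open where not, a black bar for the list's median and a dashed line for the median of all tested genes. Stress and amino acid lists lie to the right of the dashed line and cholesterol and mitosis lists to its left, while many lists straddle it.

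Cytokine genes were split between those that rose and those that did not. Of 18 measured, 9 rose and 0 fell, with a median of 0.92, although 1 fell without fraction plus LPS replicate 2 or mixture plus LPS replicate 1. Csf2, the gene of the growth factor GM-CSF, gave 7722, 6659 and 6381 with the fraction and 329, 418 and 305 with the mixture. The groups lay far apart, at 19.9-fold (4.31 ± 0.51, adjusted p = 3.77e-06). Il6, the gene of interleukin 6, gave 11859, 13867 and 11016 against 1717, 2546 and 1786, 6.14-fold higher with the fraction (2.62 ± 0.56, adjusted p = 0.0016). Il23a, which encodes the specific chain of interleukin 23, was higher by 2.24 ± 0.37, the vascular growth factor gene Vegfa by 1.86 ± 0.19 and the gp130 cytokine genes Osm and Lif by 1.34 ± 0.21 and 1.32 ± 0.22. Il12b was also called (2.16 ± 0.78), but its mixture arrays (51.7, 5.05 and 52.7) were low and the call was lost without mixture plus LPS replicate 2 (adjusted p = 0.273) or any fraction plus LPS array.

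The classic early cytokines Tnf and Il1b did not separate the groups in the same way. Tnf gave 27615, 23170 and 26182 with the fraction and 22753, 21866 and 21622 with the mixture. The 3 fraction arrays were all above the 3 mixture arrays, yet the difference was 0.21 ± 0.13 (adjusted p = 0.267, 95% interval -0.07 to 0.49). With only the 6 arrays of the comparison in the fit, Tnf was called (adjusted p = 0.0394). Il1b, the gene of interleukin 1 beta, gave 12138, 13238 and 12089 against 11418, 14305 and 10707, which overlapped, with a difference of 0.05 ± 0.21 and an interval of -0.38 to 0.48. The interval of Il10, at 0.63 ± 0.57, was -0.55 to 1.82.

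Of 17 chemokine genes, 3 rose and 1 fell, where 12.0% of all genes rose and 16.2% fell. Ccl20, a ligand of the receptor CCR6, gave 185, 293 and 329 with the fraction, while the mixture arrays (6.89, 12.7 and 45.2) were all under the array median. It was at least 4.50-fold higher (adjusted p = 0.00463), a call lost when all 6 arrays numbered 1 were left out (0.074). Cxcl3, a neutrophil attractant, was at least 3.60-fold higher (2.43 ± 0.51), with 2 of 3 mixture arrays under the array median. Its near relatives Cxcl1 and Cxcl2 were at 0.09 ± 0.37 and 0.07 ± 0.20 and were not called, both being very bright in both groups (32825, 29165 and 33053 and 31090, 29726 and 29839 for Cxcl2). Ccl2, a monocyte attractant, had overlapping arrays (9199.9, 8498 and 3922 against 4201, 3982 and 1433), and its call (adjusted p = 0.0406) was lost without fraction plus LPS replicate 1 (0.154), fraction plus LPS replicate 2 (0.128) or mixture plus LPS replicate 3 (0.243). Cxcl10, a chemokine of the interferon branch, fell (-0.57 ± 0.18, adjusted p = 0.0236), and this call was lost without fraction plus LPS replicates 1 (0.136) or 3 (0.0836) or mixture plus LPS replicates 2 (0.0646) or 3 (0.0772).

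The list of prostaglandin receptors and enzymes included a pair of related receptors with opposite differences. It also held leukotriene and nitric oxide genes, and of its 19 measured members 7 rose and 2 fell. One of the members that fell, the leukotriene pathway gene Alox5ap, lost its call without fraction plus LPS replicates 1 (adjusted p = 0.0585) or 3 (0.0639) or mixture plus LPS replicates 1 (0.118) or 3 (0.0636), which leaves Ptger4. Ptger2 and Ptger4 encode receptors that both answer prostaglandin E2 by raising cyclic AMP. Ptger2 gave 2507, 2693 and 2558 with the fraction and 316, 299 and 425 with the mixture, 7.55-fold higher (2.92 ± 0.31, adjusted p = 1.03e-06). Ptger4 gave 219, 253 and 207 with the fraction and 1001, 982 and 1089 with the mixture, 4.54-fold lower (-2.18 ± 0.13, adjusted p = 1.10e-09). The arrays of each gene were fully separated, in opposite directions, and vehicle plus LPS lay on the mixture side for both (344, 774 and 971 for Ptger2 and 1007, 1095 and 1048 for Ptger4). Ptgir, the prostacyclin receptor gene, gave 364, 360.1 and 399 against 37.2, 85.7 and 89.9 and was higher by 2.50 ± 0.36. Ptgs2, the inducible cyclooxygenase gene, gave 27906, 25256 and 27592 against 22190, 21868 and 21518. Its arrays did not overlap, but the difference of 0.30 ± 0.17 was not called (adjusted p = 0.222, interval -0.06 to 0.66) unless only the compared arrays entered the fit (0.00305). Its other kept probe set was called higher (0.67 ± 0.22, adjusted p = 0.0352). Pla2g4a, which releases the arachidonic acid that cyclooxygenases use, was higher by 0.53 ± 0.10. The nitric oxide synthase gene Nos2 was not called, with 412, 608 and 334 against 337, 399 and 345. Arg2, an arginase gene, and Gch1, which makes the synthase's cofactor, were higher by 1.70 ± 0.32 and 0.98 ± 0.13.

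Feedback inhibitors of inflammatory signalling rose in 5 and fell in 4 of 26 cases, where 12.0% of all genes rose and 16.2% fell. Their median was 0.07. Irak3, which damps Toll-like receptor signalling, and Nfkbiz, an atypical IkB protein gene needed for Il6 and Lcn2 induction, were higher by 1.24 ± 0.26 and 0.94 ± 0.15. Atf3, a repressor that is also counted with the stress genes, was higher by 1.52 ± 0.24. Socs3, an inhibitor of gp130 cytokine receptors, gave 7825, 8704 and 6628 with the fraction and 11681, 13272 and 12844 with the mixture. It was 1.64-fold lower with the fraction (-0.71 ± 0.24, adjusted p = 0.029), a call lost without any one array of the comparison except fraction plus LPS replicate 2, with adjusted p between 0.0505 and 0.116. The related gene Socs1 had -1.26 ± 0.44, and its call was lost without fraction plus LPS replicates 1 (0.157) or 3 (0.165) or any mixture plus LPS array (0.0809 to 0.0988). The count of 4 that fell was 2 without any array of the comparison other than fraction plus LPS replicate 2, and 9 rose with only the compared arrays fitted.

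Toll-like receptor and NF-kB components were divided evenly, 6 higher and 6 lower of 27, where 12.0% of all genes were higher and 16.2% lower. The kinase gene Ikbke and the NF-kB subunit genes Nfkb2 and Relb were higher by 0.89 ± 0.17, 0.83 ± 0.12 and 0.80 ± 0.18. Tlr4, the LPS receptor, was higher by 0.59 ± 0.11, whereas Tlr3, which senses double-stranded RNA, Tlr2 and the adaptor gene Myd88 were lower (-1.19 ± 0.27, -0.57 ± 0.12 and -0.58 ± 0.12). Rela, the main activating subunit, was at 0.20 ± 0.12 and not called. For some genes not called in this list or among the feedback inhibitors, other probe sets were called. They were higher for Nfkbia (0.44 ± 0.11 and 0.39 ± 0.11) and Ikbkg (0.67 ± 0.14) and lower for Map3k7 (-0.47 ± 0.13). Those of Cyld went both ways (0.71 ± 0.24 and -0.36 ± 0.11).

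Interferon response genes were lower or not called. Of 32 measured, 12 fell and 0 rose (median -0.53). Igtp, which encodes an interferon-inducible GTPase, gave 1328, 2594 and 1613 with the fraction and 3910, 5652 and 5414 with the mixture. The groups did not overlap, and the difference was 2.78-fold (-1.48 ± 0.23, adjusted p = 9.17e-05). Ifit1, an antiviral protein gene, gave 3524, 6431 and 3583 against 8238, 9597 and 9153 and was 2.07-fold lower (-1.05 ± 0.23). Irgm1, Rsad2 and the double-stranded RNA kinase gene Eif2ak2 were lower by differences of -1.12 ± 0.19, -1.01 ± 0.25 and -0.82 ± 0.12. Ifit3 and Cmpk2 were called with overlapping arrays, and both calls were lost without fraction plus LPS replicate 1 (adjusted p = 0.119 and 0.104), fraction plus LPS replicate 3 (0.0678 and 0.0598) or mixture plus LPS replicates 2 (0.092 and 0.0692) or 3 (0.0646 and 0.0554). Fraction plus LPS replicate 2 had the highest signal of its group for Igtp, Ifit1, Ifit3 and Cmpk2. Ifnb1, the interferon beta gene itself, was at -0.61 ± 0.41 and not called (adjusted p = 0.3). Irf7, Mx1 and Stat2 were at -0.59 ± 0.24, -0.69 ± 0.36 and -0.55 ± 0.25, also not called, though another probe set of Stat2 was called lower (-0.70 ± 0.24).

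The promoters of this list were searched for GAAANNGAA, the core of the site bound by interferon-activated factor complexes, on both strands of the same windows. The core was found for 16 of 26 listed genes with a window, against 9.76% of all genes with one. These include members that were not called, such as Isg15, Oas3 and Stat2, and whether the core goes with the fall was not tested. The stretch before the start of Igtp, the member with the largest fall, and those of Irgm1 and Ifit1, which also fell, are shown with the core in capitals.
Igtp: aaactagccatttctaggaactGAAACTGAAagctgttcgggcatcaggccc
Irgm1: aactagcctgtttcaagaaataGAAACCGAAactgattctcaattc
Ifit1: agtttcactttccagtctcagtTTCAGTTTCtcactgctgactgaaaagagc
They lie at chr11:58199500-58199551, plus strand (Igtp), chr11:48871421-48871466, minus strand (Irgm1) and chr19:34640783-34640834, plus strand (Ifit1). Igtp has its match 34 bases before the start, and Ifit1 has 3 matches on the other strand, at 84, 103 and 109 bases. Irgm1 has overlapping matches 24 and 30 bases before the start. None of the stretches printed for any of the 3 searched motifs has a match that overlaps one of another motif.

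Among AP-1 and Kruppel-like factor genes, 5 of 20 rose and 1 fell, a lower count that was 3 without fraction plus LPS replicate 2 and 4 with only the compared arrays fitted. Klf2, Klf4 and Klf6 were higher by 1.32 ± 0.26, 1.22 ± 0.20 and 1.14 ± 0.19. Klf10, a target of transforming growth factor beta, gave 120, 118 and 103 with the fraction and 394, 360.5 and 383 with the mixture and was 3.34-fold lower (-1.74 ± 0.14, adjusted p = 3.29e-08). The AP-1 genes Fos, Jun and Junb were at 0.20 ± 0.17, 0.08 ± 0.15 and -0.21 ± 0.12, and none was called. Cytosolic heat shock genes gave 1 higher and 5 lower of 19, where 12.0% of all genes were higher and 16.2% lower. The stress-inducible chaperone gene Hspa1b, which has a near-identical copy in Hspa1a, gave 899.9, 1166 and 724 against 1826, 2335 and 1887 and was lower (-1.14 ± 0.17, adjusted p = 5.24e-05). Its co-chaperone genes Bag3 and Hsph1 were lower as well (-0.65 ± 0.12 and -0.47 ± 0.10), while Hsp90aa1 was at 0.02 ± 0.11. For some heat shock genes the call depended on the probe set. Dnaja1, counted lower, had other probe sets called higher (0.61 ± 0.19 and 0.41 ± 0.13). So did Hspa8 (0.41 ± 0.14 and 0.52 ± 0.10) and Hspa4 (0.67 ± 0.18 and 0.99 ± 0.21), which were counted as not called.

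Growth genes fell with the fraction in both lists of cell cycle genes. Among genes of mitosis and the spindle, 19 of 25 fell and 0 rose (median -0.76), where 16.2% of all genes fell. Plk1, a kinase that drives mitotic entry, gave 911, 800.3 and 808 with the fraction and 1815, 1561 and 1613 with the mixture. All fraction arrays were lower, by 1.98-fold (-0.99 ± 0.12, adjusted p = 6.21e-06). The motor protein gene Kif20a and the kinase gene Aurka were lower by differences of -1.14 ± 0.19 and -0.97 ± 0.12, and the motor protein gene Kif23 was at 1362, 971 and 1122 against 2708, 2110.3 and 2076. Array 1 of each group was the brightest of its 3 for Kif20a, Kif23, Plk1 and Aurka. In DNA replication and the G1 to S step, 17 of 28 fell and 3 rose (median -0.40). Ung, which removes uracil from DNA, gave 41.2, 74.3 and 44.7 against 307, 176 and 267 and, with 2 of 3 fraction arrays under the array median, was at least 3.69-fold lower (-2.24 ± 0.22, adjusted p = 5.14e-07). The cyclin genes Ccne1 and Ccne2 and the licensing gene Cdc6 were lower by -0.98 ± 0.25, -1.06 ± 0.28 and -0.92 ± 0.17. Rfc4, Cdt1 and Tyms were the members that rose (0.44 ± 0.10, 0.53 ± 0.11 and 0.79 ± 0.25), and Tyms lost its call without fraction plus LPS replicates 1 (adjusted p = 0.076) or 3 (0.0692) or mixture plus LPS replicate 1 (0.154).

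The hexamer TTTGAA, the core of the cell cycle homology region found in promoters of mitotic genes, separated both growth lists. It was present on either strand for 17 of 22 mitosis genes with a window and for 3 of 24 replication genes, against 20.2% of all genes with one. Both counts include members that were not called, such as Bub1b and Mcm2. The stretches of 3 mitosis genes that fell are shown with the hexamer in capitals.
Prc1: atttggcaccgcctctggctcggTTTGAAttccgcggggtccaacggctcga
Kif2c: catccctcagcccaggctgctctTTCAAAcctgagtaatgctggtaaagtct
Ube2c: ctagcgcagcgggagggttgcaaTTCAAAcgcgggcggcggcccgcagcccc
They lie at chr7:80294423-80294474, plus strand (Prc1), chr4:117178847-117178898, minus strand (Kif2c) and chr2:164769877-164769928, plus strand (Ube2c), with matches 30, 103 and 29 bases before the start. These genes had differences of -0.84 ± 0.13, -0.87 ± 0.11 and -0.51 ± 0.13.

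Growth arrest and death genes went both ways, 6 higher and 6 lower of 21, where 12.0% of all genes were higher and 16.2% lower. Gadd45a, a damage- and stress-inducible gene, gave 2779, 1905 and 2329.5 with the fraction and 409, 248 and 319.9 with the mixture, 7.24-fold higher (2.86 ± 0.27, adjusted p = 2.23e-07). Its relative Gadd45g was lower (-1.25 ± 0.25). The death-promoting genes Bcl2l11 and Bbc3, of the BH3-only family, were higher by 1.29 ± 0.14 and 1.18 ± 0.18, whereas Pmaip1 and Bid of the same family were lower (-0.52 ± 0.16 and -0.65 ± 0.08), the call for Pmaip1 being lost without fraction plus LPS replicate 1 (adjusted p = 0.0781) or mixture plus LPS replicates 2 (0.0544) or 3 (0.0552). Cdkn1a, the p53 target that halts the cycle, was at 0.27 ± 0.11 and not called. Without mixture plus LPS replicate 2 only 3 members were called lower. Among ribosome biogenesis genes 7 of 24 fell, by up to -0.54 ± 0.07 for Nop16, and the count was 4 without fraction plus LPS replicate 2 or mixture plus LPS replicate 1. Myc, the factor that drives them, was the one member that rose (2 rose without mixture plus LPS replicate 1), at 2376, 2577 and 2585 against 911, 824 and 776 (1.59 ± 0.35, adjusted p = 0.00199). In this list Nolc1 and Wdr43, both counted lower, each had another probe set called higher (0.70 ± 0.19 and 0.63 ± 0.16). Of members not called, another probe set was called higher for Ddx21 (0.41 ± 0.09) and lower for Wdr12 (-0.69 ± 0.24).

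Among macrophage surface genes, 3 of 18 identity genes rose and 2 fell, where 12.0% and 16.2% of all genes did. The fungal sensor gene Clec4e was higher by 0.96 ± 0.15 and the myeloid factor gene Cebpa lower (-0.83 ± 0.12). Csf1r, the receptor that maintains macrophages, was lower by a small difference (-0.24 ± 0.09), and its call was lost when any one of the 6 arrays was left out (adjusted p between 0.0691 and 0.131). Of 4 Fc gamma receptor genes, Fcgr2b, the inhibitory one, gave 3338, 3069 and 3368 with the fraction and 500.3, 499 and 394 with the mixture. It was 7.05-fold higher (2.82 ± 0.23, adjusted p = 3.87e-08), from a probe set open to cross-hybridization. The activating receptor genes Fcgr1 and Fcgr3 were not called (-0.39 ± 0.26 and -0.77 ± 0.33), and Fcgr4 was called lower (-0.88 ± 0.31) but lost that call without fraction plus LPS replicates 1 (adjusted p = 0.131) or 3 (0.0999) or mixture plus LPS replicates 2 (0.085) or 3 (0.141). In antigen presentation and adhesion, 1 of 19 rose, the integrin gene Itgal (1.28 ± 0.11), and 3 fell, Tap1, Tap2 and Psmb8 (-0.60 ± 0.22, -0.48 ± 0.17 and -0.47 ± 0.13), each of which lost the call without fraction plus LPS replicate 1 (0.179, 0.111 and 0.0572), fraction plus LPS replicate 3 (0.172, 0.138 and 0.0561) or mixture plus LPS replicate 2 (0.119, 0.183 and 0.0605), and Tap1 and Tap2 also without mixture plus LPS replicate 3 (0.17 and 0.092).

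Of 14 matrix genes, 3 rose. The gelatinase gene Mmp9 gave 1573, 989 and 1006 with the fraction and 265, 274 and 236 with the mixture (2.17 ± 0.30, adjusted p = 2.13e-05). Mmp13, a collagenase gene, gave 1204, 1230.1 and 1371 against 158, 265 and 244, but its call (2.54 ± 0.93, adjusted p = 0.0476) was lost when any one of the 6 arrays was left out (0.0825 to 0.136). Col4a1 was the third, low in both groups and overlapping (1.14 ± 0.37), and lost its call without fraction plus LPS replicates 2 (0.0578) or 3 (0.16) or mixture plus LPS replicate 3 (0.174). Among lysosomal genes 2 of 21 rose and 2 fell, where 12.0% and 16.2% of all genes did, with the sialidase gene Neu1 at -0.76 ± 0.11. The count of risers was 1 with any one of the 6 arrays left out and 0 without all arrays numbered 1. The proton pump gene Atp6v1a lost its call in each of those 6 fits (adjusted p between 0.0778 and 0.139) and Atp6v0d2 without mixture plus LPS replicate 1 (0.0898), and 1 gene fell without fraction plus LPS replicate 3. Glycolysis and hypoxia genes gave 3 higher and 2 lower of 21, where 12.0% of all genes were higher and 16.2% lower. Only Ndrg1 moved by more than 2-fold among the called. Ndrg1, a stress and hypoxia gene, gave 2677, 3935 and 2927 with the fraction against 272, 393 and 452 with the mixture (8.61-fold, 3.11 ± 0.30), from a probe set open to cross-hybridization. The glycolytic genes Hk2, Ldha and Pgk1 were at 0.04 ± 0.14, -0.24 ± 0.10 and 0.02 ± 0.09 and not called. The lower count in this list was 7 with only the compared arrays fitted and 4 without fraction plus LPS replicate 2.

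Several of the largest differences lay outside these lists. Aqp9, a channel for glycerol and water, gave 1032, 1255 and 1007 with the fraction and 70.9, 32.5 and 68.2 with the mixture. With 1 of 3 mixture arrays under the array median, it was at least 17.0-fold higher (4.34 ± 0.31, adjusted p = 6.10e-09), and vehicle plus LPS was at 84.1, 98.4 and 107. Tmem154, which encodes a membrane protein, was at least 6.75-fold higher, with 2 of 3 mixture arrays under the array median (56.4, 49.8 and 35.9), and the angiopoietin-like gene Angptl6 was 7.57-fold higher. The genes AA467197, Slc39a2, Afap1l1, Fam43a, Omg and Avil also ranked among the 15 largest rises, but their mixture arrays lay under the array median, so their folds are bounds of at least 1.87 (Slc39a2) to 2.24 (AA467197). The call for AA467197 was lost without fraction plus LPS replicate 2 (adjusted p = 0.058), and that for Avil without fraction plus LPS replicate 1 (0.0513) or mixture plus LPS replicate 1 (0.0742).

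On the downward side, Nme1, a nucleoside diphosphate kinase gene, gave 3095, 2849 and 2938 with the fraction and 18054, 17106 and 17160 with the mixture. It was 5.89-fold lower (-2.56 ± 0.24, adjusted p = 2.59e-07), from a probe set open to cross-hybridization. Nfatc1, a calcium-regulated transcription factor gene, gave 463, 418 and 356 against 2009, 1508 and 1466 and was 4.01-fold lower (adjusted p = 1.14e-06). Il6ra, which encodes the ligand-binding chain of the interleukin 6 receptor, was at least 3.25-fold lower (-1.97 ± 0.24, adjusted p = 5.53e-06), at 87.2, 69.4 and 37.9 with the fraction and 276, 212 and 237 with the mixture, so the receptor gene fell where the ligand gene Il6 rose. Pmepa1, a negative regulator of transforming growth factor beta signalling, and the serotonin receptor gene Htr1b were 5.24-fold and at least 4.38-fold lower. Kbtbd11 was 4.15-fold lower. Fut10, Hspb2, Abhd8, Capn8, Edn3 and Mzf1 completed the 15 largest falls, with bounds of at least 1.03 (Hspb2) to 2.94 (Edn3). Of these, Hspb2 lost its call without fraction plus LPS replicate 1 (adjusted p = 0.256) or any mixture plus LPS array (0.0797 to 0.109), and Abhd8 and Capn8 lost theirs without fraction plus LPS replicate 2 (0.0949 and 0.0507). With low signals set to the array median, 5 of these 6 lost the call, at -0.30 for Fut10 (adjusted p = 0.294), -0.18 for Mzf1 (0.402), -0.04 for Hspb2 (0.921), -0.28 for Capn8 (0.475) and -0.67 for Abhd8 (0.0559), and only Edn3 kept it.

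The same treatments were also compared without LPS, on 6 other arrays. There 3743 genes were called (32.4%), 1962 higher (17.0%) and 1781 lower (15.4%) with the fraction. Over the 11547 genes the differences with and without LPS had a Pearson correlation of 0.58, given as a description across genes, which are not independent replicates. Of the genes called with LPS, 64.7% were also called without it, and of those called without LPS 56.2% were called with it. Both directions were kept by 993 higher and 1085 lower genes, and 27 were called in opposite directions. The split without LPS depended on scaling, with 52.4% of calls higher as deposited and 36.5% after median centring.

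**Figure D3:**
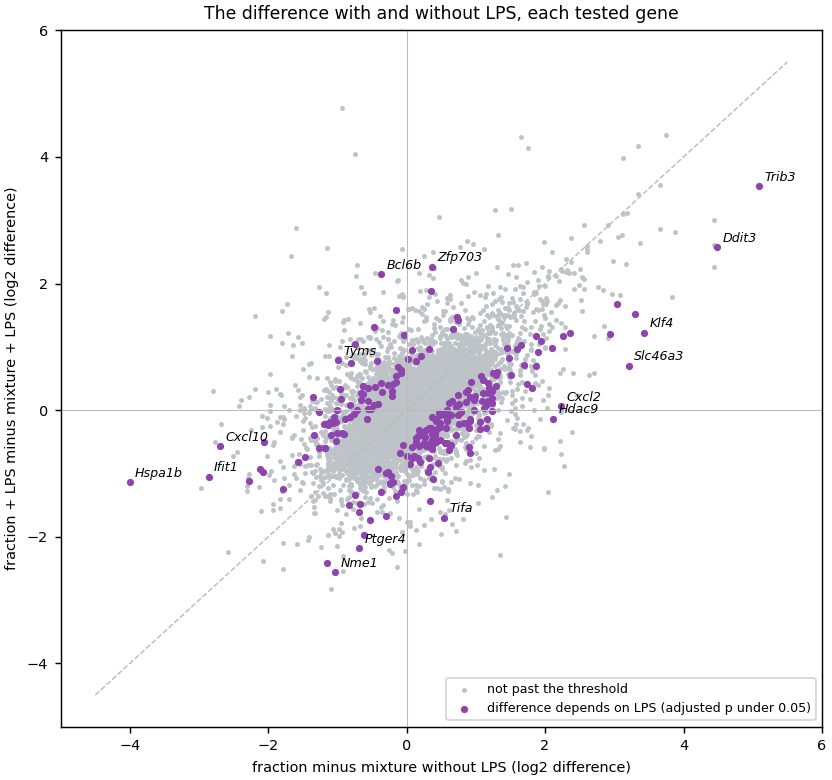
Log2 difference between fraction and mixture without LPS (horizontal) and with LPS (vertical) for each tested gene, with purple points where the difference depended on LPS at an adjusted p under 0.05 and a dashed line of equal differences. The named genes include Trib3 and Ddit3 below the line at upper right and Hspa1b and Ifit1 above it at lower left.

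Whether LPS changed the difference was tested as an interaction, which 234 genes passed (2.03%), 77 positive and 157 negative. After median centring 158 passed and the positive share moved from 32.9% to 51.9%, and without fraction replicate 2 it was 49.2%, with 60 positive and 62 negative. The count fell with single arrays left out, to 122 without fraction replicate 2, 126 without mixture replicate 3, 120 without fraction plus LPS replicate 3, and 147, 107 and 125 without mixture plus LPS replicates 1, 2 and 3. Of the 6 leading positive genes, 3 were lower with the fraction without LPS and less so with it. Hspa1b had -4.00 without and -1.14 with LPS (interaction 2.87 ± 0.24, adjusted p = 2.89e-06), Cxcl10 had -2.69 and -0.57 (2.12 ± 0.26), and Ifit1 had -2.86 and -1.05 (1.81 ± 0.32). Bcl6b and Zfp703, both genes of transcriptional repressors, had a positive difference with LPS and one near 0 without it, at -0.37 and 2.15 for Bcl6b (adjusted p = 0.0133) and 0.36 and 2.27 for Zfp703 (adjusted p = 0.00161). Tyms, which encodes thymidylate synthase, was called lower without LPS (adjusted p = 0.00463) and higher with it (0.79, interaction 1.79 ± 0.36, adjusted p = 0.0119). Among the negative genes, Cxcl2, Hdac9, Klf4 and Slc46a3 had larger positive differences without LPS. Klf4 had 3.43 without and 1.22 with LPS, and Cxcl2 2.23 and 0.07 (-2.17 ± 0.28, adjusted p = 4.09e-04). With LPS, Cxcl2 signals lay between 29165 and 33053 in both groups, and the highest of any tested gene on the 6 arrays was 39450. Whether compression near the top of the signal range narrowed the Cxcl2 difference was not tested. Tifa, an adaptor gene of NF-kB signalling, was at 0.54 without and -1.70 with LPS (-2.24 ± 0.35, adjusted p = 0.00223). Ptger4 fell by more with LPS (-2.18 against -0.69, adjusted p = 3.37e-04).

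The called members of 6 lists were also counted without LPS, and differences between lists were not tested. These counts are read against all tested genes, of which 17.0% were higher and 15.4% lower without LPS. The interaction was passed by 2.03% of all tested genes. In the CHOP and ATF4 list 14 of 15 rose without LPS as well, and 5 members passed the interaction test, namely Trib3, Ddit3, Atf3, Ppp1r15a and Nupr1, each with a smaller positive difference under LPS. In the interferon list 27 of 32 fell without LPS against 12 with it, and 6 passed the interaction. In mitosis 5 of 25 fell without LPS against 19 with it, and 3 passed, Plk1 (adjusted p = 0.0427), Aurka (0.0401) and Cenpa (0.0333). Each of the 3 kept that call in 2 of the 12 fits that leave out 1 array of these 4 groups. The mitosis count without LPS was 9 after median centring, without all arrays numbered 1 or with only the compared arrays fitted, and 12 with the replicate block, a recount chosen after seeing the data. For replication genes 22 fell without LPS against 17 with it, and for cholesterol genes 14 against 17. The cytokine list had 5 higher without LPS against 9 with it, and 1 member, Lif, passed the interaction (adjusted p = 0.00448). For Csf2 the values were 1.65 without and 4.31 with LPS (interaction adjusted p = 0.0633). Its mean log2 signals without LPS, 3.65 with the fraction and 2.00 with the mixture, lay under every array median, too low for a fold. Csf2 is among the 5 higher without LPS, a count that was 4 with low signals set to the array median.

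**Figure D4:**
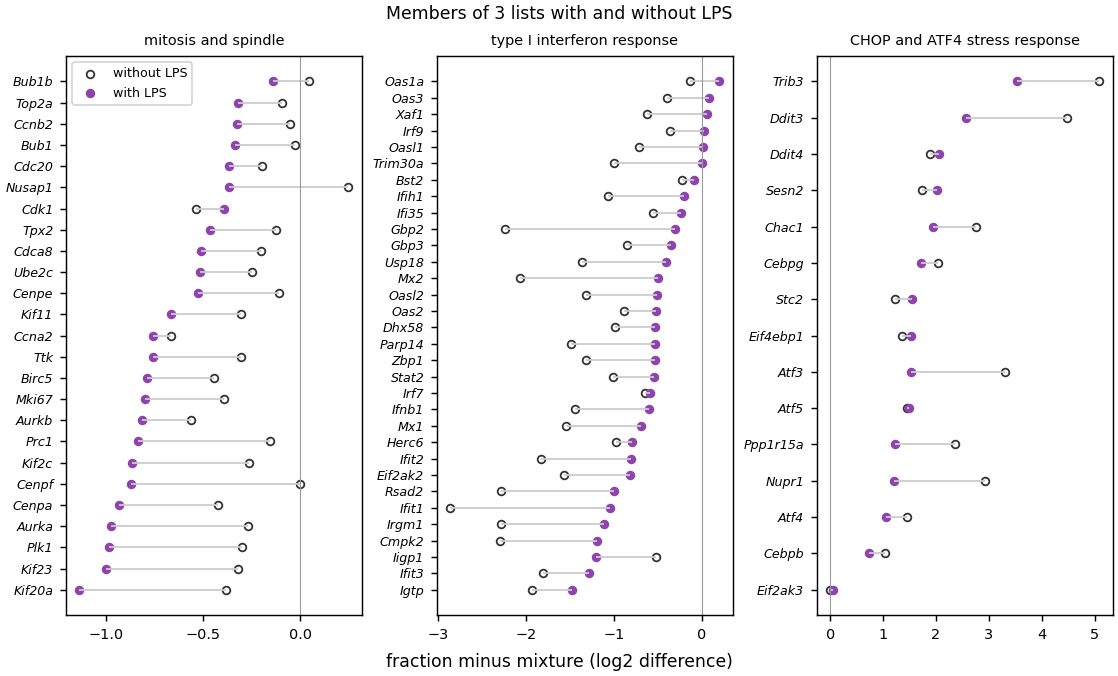
Log2 difference between fraction and mixture for each measured member of 3 lists, as open circles without LPS and purple circles with LPS, joined by a line. Mitosis genes other than Cdk1 lie lower with LPS, most interferon genes lie further below 0 without LPS, and CHOP and ATF4 genes lie above 0 in both states, apart from Eif2ak3.

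Mixture plus LPS was set against vehicle plus LPS to place the mixture on its own. The genes with the smallest p were Map1s, Piga, Lrrc8c, Ssh2 and Helb. Map1s, a microtubule-associated protein gene, gave 393, 364 and 360.2 with the mixture and 596, 531 and 573 with vehicle, a difference of -0.60 ± 0.10 (adjusted p = 0.115). The fraction arrays of this gene lay between them (521, 489 and 482). Piga was at -0.49 ± 0.10, Lrrc8c at 0.99 ± 0.21, Ssh2 at -0.39 ± 0.08 and Helb at -0.63 ± 0.14, all with an adjusted p of 0.476. Vehicle plus LPS replicate 1 stood apart from its group for several genes that separate fraction from mixture. For Il6 the vehicle plus LPS arrays gave 1654, 5657 and 5241, the first of them under every mixture array, and for Csf2 and Lcn2 (345, 1089 and 904, and 327, 1676 and 1564) the first likewise lay within the range of the mixture arrays. With all arrays, the difference of Lcn2 between mixture plus LPS and vehicle plus LPS was -1.18 ± 0.45 and not called (adjusted p = 0.589). Without that array the value for Lcn2 was -1.95 (adjusted p = 0.00485), for Ptger2 -1.34 (0.0149), for Fcgr2b -1.25 (1.78e-04) and for Il6 -1.46 (0.215). The differences between fraction and mixture that are given above do not use the vehicle arrays other than for the shared estimate of spread, the filter and the choice of each gene's probe set.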

How the data were processed

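Values were MAS5 signal intensities deposited by the authors, linear and scaled so that each array's 2% trimmed mean was 500, per the submitters' processing notes and the values, and the MAS5 version is not given in the sources used here. Intensities under 1 were set to 1 before log2. The brightest kept probe set stood for a gene, and 1220 genes rested on one open to cross-hybridization. All 18 arrays entered 1 limma fit (version 3.58.1 under R 4.3.3) of a mean for each of 6 groups, with 12 residual degrees of freedom and a prior variance that follows intensity. Two-sided p-values were adjusted by Benjamini-Hochberg across the 11547 genes, at a threshold of 0.05. The fit was tested on simulated data. Named genes were the 15 largest rises and falls past the threshold with arrays that did not overlap, up to 4 members a list, 6 interactions each way, the 5 smallest p for mixture against vehicle, and Ptgs2, Tnf, Il1b, Il6, Nos2, Socs3 and Hmox1. Other list members were chosen as examples after their values were seen, as were the motifs. The comparison, its members and the lists were chosen with earlier results of these data known. Alternatives covered normalization, filter, transform, probe sets, spread, block and arrays left out, the last also gene by gene, which was chosen after seeing the data. Same-numbered arrays of both groups had deviations that correlated at 0.10, 0.04 and 0.09, and arrays with other numbers at -0.13 to 0.046. Numbers were not taken as pairs in the main fit because the titles do not say that they pair cultures. An effect shared by arrays of 1 number is therefore not excluded, and the replicate block is given as an alternative.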

Additional observations from a re-analysis of the deposited data

Results flagged for a closer look

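By the interaction test of limma, the difference between fraction and mixture depended on LPS for 50 of the genes that were named or listed. A gene passed at an adjusted p under 0.05, with 3 arrays in each of 4 groups. Of all 11547 tested genes, 234 (2.03%) passed. The lists alone held 646 distinct genes, not all of them tested. The leading genes of this test in each direction were named because they passed it. Their place among the 50 was therefore fixed beforehand, and the 50 are not read as an enrichment. The value given is the log2 difference with LPS minus that without LPS. For 25 of the 50 the call was kept whichever of the 12 arrays was left out.

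Among those kept, the positive values were Hspa1b 2.87, Bcl6b 2.52, Cxcl10 2.12, Zfp703 1.91, Ifit1 1.81, Tyms 1.79, Lif 1.79, Cdc6 1.20, Plaur 0.93, Mcm10 0.92 and Ifih1 0.86. The negative values were Hdac9 -2.25, Tifa -2.24, Klf4 -2.21, Cxcl2 -2.17, Ddit3 -1.92, Atf3 -1.78, Nupr1 -1.73, Trib3 -1.55, Ptger4 -1.49, Cd83 -1.46, Klf10 -1.21, Pmaip1 -1.10, Slc7a11 -0.84 and Dnajb4 -0.75. The calls of the other 25 were lost without at least 1 array. Their positive values were Mx2 1.57, Cx3cr1 1.56, Irgm1 1.16, Insig1 1.11, Trim30a 1.01, Eif2ak2 0.75, Tirap 0.75, Fabp5 0.67, Itgal 0.62 and Fasn 0.58. Their negative values were Slc46a3 -2.51, Nme1 -1.53, Il6ra -1.36, Scd2 -1.26, Abcg1 -1.15, Ppp1r15a -1.14, Bbc3 -1.08, Aurka -0.70, Plk1 -0.69, Herpud1 -0.66, Lipa -0.66, Tlr4 -0.65, Sc5d -0.59, Atp6v1a -0.57 and Cenpa -0.51.

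Trib3, Ddit3 and Atf3, all of the ATF4 programme, were among the negative genes that kept the call, and the interferon genes Ifit1 and Cxcl10 among the positive ones. The 12 arrays of these groups are shared by all 50 tests.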

How the results depend on the processing

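Genes called for fraction against mixture with LPS numbered 3255, and under the alternatives 2400 without all 6 arrays numbered 1 to 3757 with the replicate block. Testing every probe set singly, which counts more features, gave 5744 (2751 higher, 2993 lower) with LPS and 6519 without LPS. Leaving out 1 array at a time gave 2570 to 2776 with LPS (1110 to 1204 higher, 1416 to 1617 lower). The interaction count of 234 was 537 with the replicate block and 121 with no intensity trend, and 107 to 200 with 1 array left out, where fewer samples remain. For the others the cause was not tested. Mixture against vehicle with LPS went from 0 to 1 with the replicate block, to 2 with every probe set, to 63 without all 6 arrays numbered 1, and to between 0 and 191 with 1 array left out.

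Of 149 named genes, 138 were called, of which 103 kept the call in all alternatives run for a gene (16 for those tested in each) and 35 lost it in at least 1, while 3 of 11 gained one (Ptgs2, Tnf and Nqo1). None reversed. With the replicate block, list counts moved to 18 lower for interferon genes, 24 lower for mitosis and 6 lower for glycolysis. Without all arrays numbered 1, 16 interferon, 12 replication, 22 mitosis and 4 ribosome genes were lower. With 3 arrays a group, genes whose dimmer group held a signal under the array median have no exact fold, and 190 called genes have a bound in its place.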
